A study of Mus musculus with 48 samples.

Results

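The translation initiation factors were followed through 48 poly(A) RNA-seq libraries from dissociated adult mouse dorsal root ganglia, the ganglia that hold the cell bodies of sensory neurons. Members were all protein-coding genes in the deposited tables whose symbol begins with Eif1 to Eif6. Of 56 matching genes, 7 were left out as kinases of eIF2 or inhibitors of eIF4E and 1 as not protein-coding, which left 48 of 34183 genes. All cultures were neuron-enriched and wild type. Libraries fell into 12 groups of 4. Whether the 4 of a group are different mice or different dishes is not in the labels. The p-values below thus cover the spread between libraries only, which may be technical in part. Every group held libraries with and libraries without Y-linked transcripts, as given below. An untransfected group was taken at time 0, right after dissociation. Another 8 groups received an siRNA pool straight after isolation and were taken at 42 h: a control pool (siCONTROL), or a pool against Atf4, Atf3, Jun, Stat3, Klf6, Rest or Alyref. The other 3 groups received synthetic mRNA for GFP, for Atf4, or for Atf4 together with Cebpg, and were also taken at 42 h. The 7 targeted genes and Cebpg were chosen by the study as regulators that respond to axon injury.

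Initiation factors bring the small ribosomal subunit and the initiator tRNA to the start codon of an mRNA. The eIF4F complex (eIF4E, which binds the cap, eIF4A, an RNA helicase, and eIF4G, a scaffold) recruits the mRNA, eIF3 is the large scaffold on the small subunit, and eIF1 and eIF1A guard start codon choice. eIF2 carries the initiator tRNA, eIF2B reloads eIF2 with GTP, and eIF5 and eIF5B complete subunit joining. Phosphorylation of eIF2 lowers general initiation and raises translation of Atf4, a transcription factor of the integrated stress response, and Cebpg is a dimer partner of Atf4. Injured sensory neurons are known to rely on protein synthesis for regrowth. The 48 members comprised 5 genes of start codon selection, 6 of eIF2 and tRNA delivery, 5 of eIF2B, 14 of eIF3, 13 of eIF4 and 5 of subunit joining, eIF5A and eIF6.

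The stretches upstream of 5 members with large changes in the comparisons are shown, because the manipulated regulators other than Alyref are DNA-binding transcription factors. RefSeq (GRCm38.p6) held a window of 250 bases before to 50 bases after a gene start for 38 of the 48 members, in 50 windows. Capitals mark CACGTG, a palindromic E-box, the only one of the motifs searched below that these stretches held. It was searched after the data had been seen, and a link to the manipulated regulators was not tested. For Eif2s2, Eif3b, Eif4e2 and Eif5a2 the bases from 250 to 31 before the start are printed, and for Eif4e 30 bases around each match, since that window overlaps an annotated first exon of another Eif4e transcript.
Eif2s2, chr2:154892937-154893156, minus strand: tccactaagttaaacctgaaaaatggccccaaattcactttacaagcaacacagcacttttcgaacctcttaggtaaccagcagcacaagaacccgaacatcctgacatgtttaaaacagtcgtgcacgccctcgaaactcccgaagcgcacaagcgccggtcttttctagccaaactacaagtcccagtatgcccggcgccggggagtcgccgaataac
Eif3b, chr5:140419055-140419274, plus strand: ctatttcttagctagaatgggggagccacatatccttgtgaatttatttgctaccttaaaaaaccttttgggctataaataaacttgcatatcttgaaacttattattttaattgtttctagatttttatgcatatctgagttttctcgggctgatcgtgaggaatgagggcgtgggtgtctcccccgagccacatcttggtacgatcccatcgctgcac
Eif4e2, chr1:87213661-87213880, plus strand: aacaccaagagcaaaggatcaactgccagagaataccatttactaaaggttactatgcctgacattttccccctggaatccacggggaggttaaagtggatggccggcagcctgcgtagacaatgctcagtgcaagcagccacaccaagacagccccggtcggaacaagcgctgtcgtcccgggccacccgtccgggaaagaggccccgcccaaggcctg
Eif5a2, chr3:28781027-28781246, plus strand: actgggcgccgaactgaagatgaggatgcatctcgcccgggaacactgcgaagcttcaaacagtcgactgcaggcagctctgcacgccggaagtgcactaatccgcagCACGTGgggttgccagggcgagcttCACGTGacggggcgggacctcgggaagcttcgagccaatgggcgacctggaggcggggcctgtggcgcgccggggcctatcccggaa
Eif4e, chr3:138527028-138527057, plus strand: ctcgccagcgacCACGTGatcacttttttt
Eif4e, chr3:138527192-138527221, plus strand: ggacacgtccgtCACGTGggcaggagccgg

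The letters TGATGNAA (both strands), the form in which Atf4 with a C/EBP partner is known to bind, were in 1 of the 50 members' windows, that of Eif2s3x, and in 3.97% of all 32851 RefSeq windows. A further 3 motifs were searched after the data had been seen, also on both strands. TGANTCA, the AP-1 form to which Jun and Atf3 belong, was in 4 of 50 windows (Eif1, Eif3f, Eif3j1 and Eif3l) and in 7.81% of all. TGACGTCA, the cAMP response form, was in 0 of 50 and in 1.79% of all. CACGTG was in 12 of 50 windows, of 10 members (Eif1b, Eif3a, Eif3f, Eif3k, Eif4a1, Eif4e, Eif4g1, Eif4h, Eif5a and Eif5a2), and in 7.15% of all. None of the 4 motifs contains another, a match is letters only, and the windows of Eif2s2, Eif3b and Eif4e2 printed above held none of the 4.

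Deposited totals ranged from 1539198 to 6621566 expected counts per library, with the shallowest library siKlf6 1. Levels are given as CPM, deposited values scaled by each library's total after that total was adjusted by TMM, a scaling factor between libraries. The adjusted libraries thus do not share the same total. The scale was taken to account for transcript length already, an inference from the values that the sources do not state. Comparisons of level between different genes rest on it. Levels of the mRNA libraries were scaled separately and are compared only with each other. Each siRNA lowered its own target. Atf3 went from 1235 to 214 CPM, Atf4 from 569 to 95.6, Jun from 296 to 88.2, Stat3 from 271 to 46.8, Klf6 from 169 to 39.6, Alyref from 73.1 to 15.8 and Rest from 8.38 to 3.27. With mRNA, Atf4 rose from 642 CPM with GFP to 14145 and, with Cebpg, 20850, and Cebpg rose from 46.6 to 61202. In every fit, 47 of the 48 members passed the filter on low counts, and Eif4e1b, a germline eIF4E, was under it, at 0.219 CPM at time 0 and 0.405 in siCONTROL.

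At time 0 the members summed to 8042 ± 93.0 CPM (SD, n = 4) and in siCONTROL cultures at 42 h to 10786 ± 123, both as descriptions. Eif4a2, an eIF4A helicase abundant in neurons, was the most abundant member at time 0, at 1173 ± 43.2 CPM, ahead of Eif4g2, an eIF4G-like protein that does not bind eIF4E, at 688 ± 44.3. In siCONTROL the order began with Eif1 at 1139 ± 156, Eif4g2 at 910 ± 77.6 and Eif5a at 869 ± 22.1. Libraries of Eif4g2 (799 to 980) overlapped those of both neighbours, so that order rests on the means. Eif4a2 came next there, at 707 ± 61.7, and its libraries overlapped those of Eif4a1, at 640 ± 36.4.

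Between time 0 and 42 h in culture with control siRNA, most initiation factor transcripts were higher, among them the cap-binding proteins Eif4e and Eif4e2, the anti-association factor Eif6, the eIF3 subunits Eif3b and Eif3c and the eIF2 beta subunit Eif2s2. Of 47 members, 27 rose (57.4%) and 5 fell (10.6%), by edgeR's quasi-likelihood test with Benjamini-Hochberg adjustment over all 13448 genes and a threshold of 0.05. Over all genes tested, 28.7% rose and 29.2% fell. The median log2 fold change was 0.31 over the members and 0.011 over all genes, and 39 members (83.0%) were above 0 against 50.6% of all genes. Time in culture, dissociation and transfection cannot be told apart in this comparison.

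**Figure D1:**
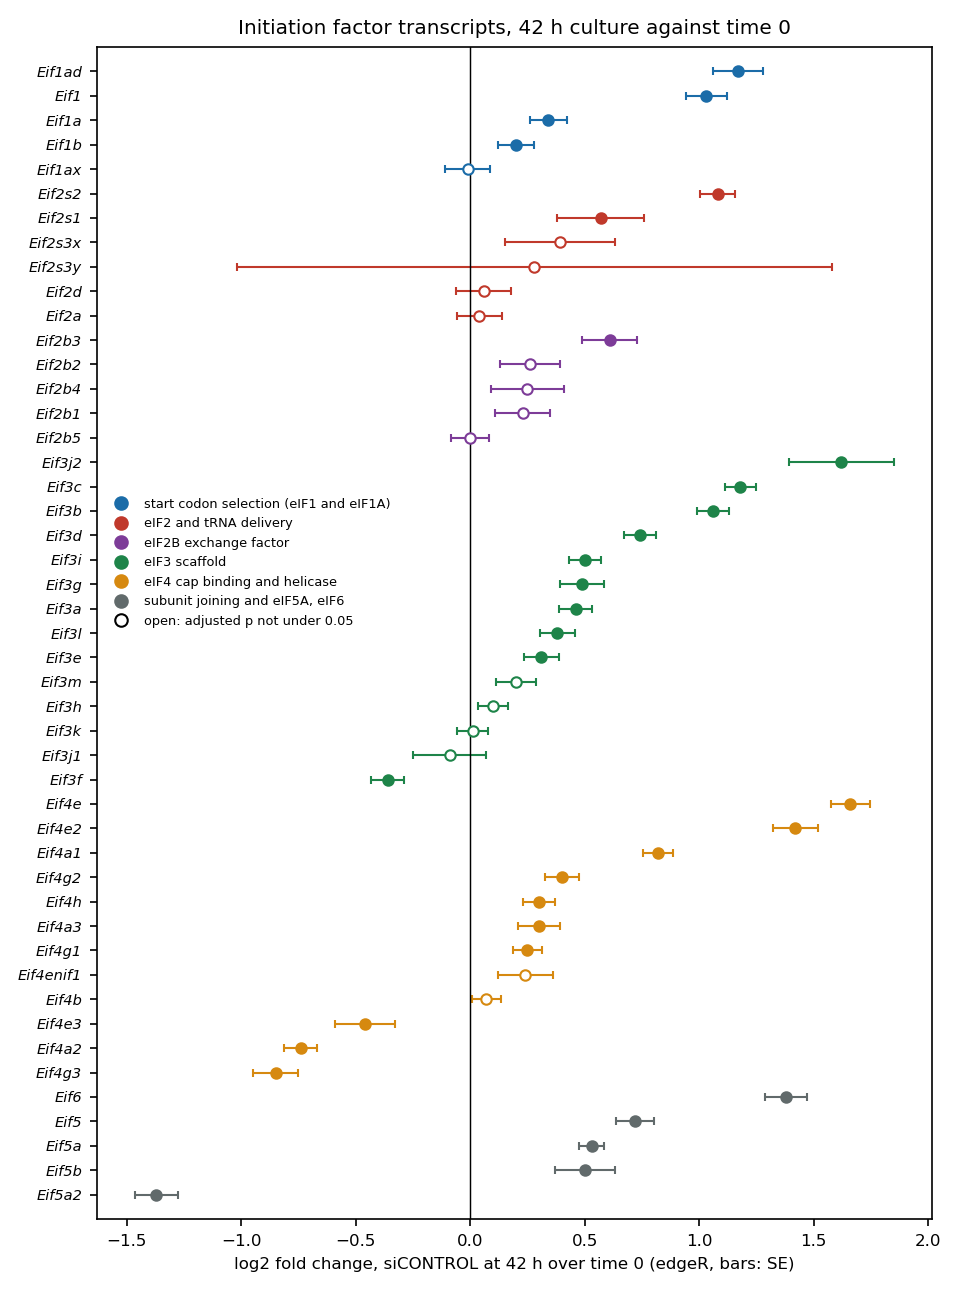
Log2 fold change of each of the 47 tested members, siCONTROL at 42 h over time 0 (x axis; points are edgeR estimates from 4 against 4 libraries, bars their standard errors), grouped by role and ordered within each. Filled points passed an adjusted p of 0.05; 27 lie to the right of 0 and 5 to the left, from Eif4e at 1.66 to Eif5a2 at -1.37.

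Cap recruitment held both the largest rise and 3 of the 5 falls. Eif4e, the main cap-binding protein, read 131, 154, 174 and 159 CPM at time 0 and 505, 470, 493 and 493 in siCONTROL. The groups were far apart, with a 3.16-fold rise (log2 1.66, SE 0.085, edgeR adjusted p = 4.53e-08). Eif4e2 (4EHP), a cap-binding protein known as a repressor of translation, read 78.3, 80.8, 82.9 and 97.3 at time 0 and 223, 268, 207 and 211 in siCONTROL. Its rise was 2.67-fold (edgeR adjusted p = 6.62e-07), and again no library of one group reached the other. In all, 7 of the 12 tested eIF4 members rose, including the helicase Eif4a1, from 362 ± 21.1 to 640 ± 36.4 CPM. The neuronal helicase Eif4a2 went the other way, from 1120, 1207, 1157 and 1210 to 759, 646, 661 and 761, a 1.67-fold fall (edgeR adjusted p = 5.77e-06). Eif4g3, a paralog of the eIF4G scaffold, fell 1.8-fold (edgeR adjusted p = 2.12e-05), and Eif4e3, another eIF4E relative, fell 1.38-fold from 34.4 to 25.1 CPM with overlapping libraries (edgeR adjusted p = 0.011).

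Within eIF3, 9 of 14 members rose and 1 fell. Eif3c read 155, 167, 176 and 170 CPM at time 0 and 395, 399, 367 and 363 in siCONTROL, a 2.27-fold rise (edgeR adjusted p = 8.98e-08). Eif3b, a core subunit with an RNA-recognition motif, went from 129, 122, 133 and 140 to 269, 297, 261 and 273, a 2.09-fold rise (edgeR adjusted p = 3.22e-07). Both rises separated the groups completely. Eif3f, a subunit with an MPN domain, fell 1.29-fold from 135 to 105 CPM (edgeR adjusted p = 0.00107) without overlap. Eif3j2 rose 3.06-fold from 9.01 to 27.9 CPM (edgeR adjusted p = 0.000128), but 94.9% of its 31-base words also occur in other genes, 94.0% in Eif3j1, so the split between the pair is uncertain. Their sum was 34.5 ± 4.31 CPM at time 0 and 52.0 ± 5.99 in siCONTROL. Eif3d, which can itself bind caps, rose from 117 to 197 CPM, and 40.2% of its words are shared, mostly with an antisense gene, so it too is uncertain because the strand setting of the counting is not given in the sources used here.

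In start codon selection 4 of 5 rose. Eif1, the gatekeeper of start codon choice, read 545, 564, 550 and 564 CPM at time 0 and 1325, 964, 1195 and 1071 in siCONTROL, the highest mean of any member, with a log2 change of 1.03 (edgeR adjusted p = 2.55e-06). Eif1ad, a protein with an eIF1A-like domain, rose 2.25-fold from 39.8 to 89.9 CPM (edgeR adjusted p = 4.18e-06), and 14.0% of its words are shared with Banf1. Of the 6 genes of eIF2 and tRNA delivery, 2 passed the test: the alpha subunit Eif2s1 and the beta subunit Eif2s2 rose. Eif2s3x passed only with the replicate number as a block (log2 0.40, edgeR adjusted p = 0.00132). Eif2s2 went from 86.9, 81.4, 78.2 and 88.2 to 185, 161, 177 and 186, a 2.11-fold change (edgeR adjusted p = 4.94e-07), and Eif2s1 from 44.7 ± 10.9 to 66.4 ± 14.7 with overlap (edgeR adjusted p = 0.0202). Of the 5 eIF2B subunits, 1 passed: Eif2b3 rose from 23.1 to 35.4 CPM (edgeR adjusted p = 0.00128), and the other 4 did not exceed 0.26 on the log2 scale. Eif2s2 and Eif3c share 12.4% and 10.5% of their words with other genes, mostly processed pseudogenes, Eif4e 8.7%, and Eif3b and Eif4e2 1.0% and 0.6%.

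Among the factors of the late steps, 4 of 5 rose and 1 fell. Eif6, which keeps the large subunit from joining too early, read 103, 99.1, 107 and 90.8 CPM at time 0 and 258, 304, 243 and 241 in siCONTROL, a 2.61-fold rise (edgeR adjusted p = 2.87e-07). Eif5a2, the less common eIF5A, read 107, 116, 98.1 and 124 at time 0 and 45.8, 40.7, 41.7 and 45.6 in siCONTROL. It fell 2.58-fold, with a log2 change of -1.37 (SE 0.095, edgeR adjusted p = 4.39e-07). Its partner Eif5a, which helps ribosomes through difficult peptide bonds, rose from 600 to 869 CPM (edgeR adjusted p = 1.23e-05).

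In 5 of 7 paralog pairs the balance moved away from Eif4a2, Eif4g3, Eif5a2, Eif4e3 and Eif1b. It was measured as a log2 ratio within each library, so that scaling between libraries plays no part. Eif4a2 over Eif4a1 was 1.61, 1.85, 1.58 and 1.75 at time 0 and 0.32, -0.01, -0.05 and 0.31 in siCONTROL, a 2.94-fold lower ratio. Eif5a2 over Eif5a went from a mean of -2.43 to -4.31, Eif4e3 over Eif4e from -2.15 to -4.27, Eif4g3 over Eif4g1 from -1.13 to -2.22, and Eif1b over Eif1 from -0.83 to -1.65. In each of these pairs the 4 libraries of one group lay apart from the 4 of the other, which gave p = 0.0286 in an exact two-sided permutation test, the smallest this design allows, and 0.04 after Benjamini-Hochberg adjustment over the 7 pairs. Eif1ax over Eif1a (exact permutation p = 0.0571, adjusted 0.0667) and Eif4e2 over Eif4e (exact permutation p = 0.114) did not pass. Eif1b itself rose, from 313 to 361 CPM with overlapping libraries (edgeR adjusted p = 0.0479), but less than Eif1. Eif4e3 fell (log2 -0.46) by less than Eif4e rose (1.66). The Eif4e2 and Eif4e3 pairs share Eif4e, and all ratios draw on the libraries of the calls above, so they are not independent evidence. With any 1 library left out, no pair could pass after adjustment. Eif4a1 and Eif4a2 share 31.1% and 19.6% of their words with other genes. The closest gene of each is a pseudogene, with 25.6% and 5.1% of the words.

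**Figure D2:**
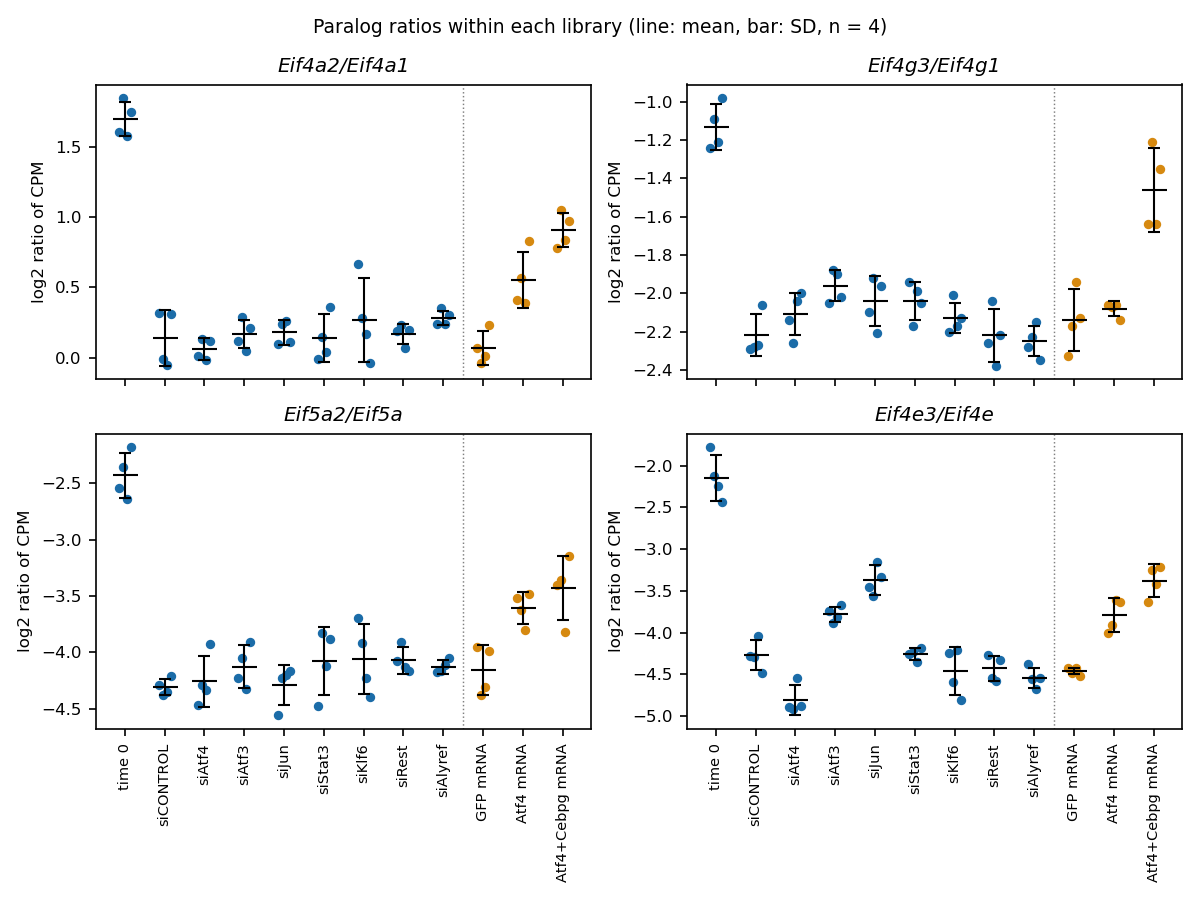
Log2 ratio of CPM for 4 paralog pairs in each of 48 libraries (points; lines are means and bars SD, n = 4), by group, with the separately scaled mRNA libraries right of the dotted line. The pairs are Eif4a2 over Eif4a1, Eif4g3 over Eif4g1, Eif5a2 over Eif5a and Eif4e3 over Eif4e. The mean of the time 0 libraries is the highest in each panel, and Eif4a2 over Eif4a1 rises from 0.07 with GFP mRNA to 0.55 with Atf4 and 0.91 with Atf4 and Cebpg.

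Markers of the cell types in the ganglion also moved over the 42 h. Summed markers of neurons went from 15785 CPM (15045 to 16309) to 11649 (10834 to 12666), with 6 of 8 lower and none higher. Those of satellite glia, the cells that wrap neuron bodies, went from 4802 (4341 to 5403) to 670 (628 to 735), with 3 of 5 lower and 1 higher, and those of Schwann cells from 1405 (1168 to 1596) to 631 (511 to 732), with 5 of 6 lower and 1 higher. Endothelial markers went from 29.5 (25.9 to 34.8) to 119 (100 to 145), 3 of 3 higher, macrophage markers from 8.46 (7.19 to 9.63) to 35.6 (27.0 to 44.7), with 2 of 3 tested higher, 1 lower and C1qa at 0 in siCONTROL, and fibroblast markers from 112 (84.7 to 144) to 75.6 (54.4 to 88.1), with 1 of 4 tested higher and 1 lower. The median log2 change of the 4 tested fibroblast markers was 0.39, against the direction of their sum. Red cell markers went from 114 (96.8 to 127) to 4.82 (2.04 to 11.5). Neuron markers had the highest sum of these lists in both groups. The part of these shifts in the members' changes was not tested, and in bulk libraries fewer cells of a type and less RNA per cell cannot be told apart.

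Regulators of initiation, from lists chosen with earlier results of these data known, moved in culture in both directions. Of 9 genes of the eIF2 kinases and the eIF2 phosphatase, 4 rose and 1 fell. Ppp1r15a (GADD34, the inducible phosphatase subunit) rose from 83.5 to 192 CPM (edgeR adjusted p = 9.2e-07) and Eif2ak3 (PERK, the endoplasmic reticulum kinase) from 29.5 to 56.6, while Eif2ak2 (PKR, the double-stranded RNA kinase) fell from 23.8 to 16.5. Of 11 tested cap-binding inhibitors and growth-control kinases, 4 rose and 5 fell. Eif4ebp1, which sequesters eIF4E, rose from 8.30 to 81.6 CPM (log2 3.28, edgeR adjusted p = 1.32e-07), and Sesn2, an inhibitor of mTORC1, from 3.39 to 35.8, whereas Pdcd4, an inhibitor of eIF4A, fell from 42.5 to 20.5. Of 12 elongation and termination factors 10 rose and 1 fell (Eef1a2, the neuronal eEF1A, from 1344 to 873 CPM), and of 13 poly(A)-binding and scanning helpers 5 rose, led by the poly(A)-binding protein Pabpc1 from 154 to 531.

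The eIF2 gamma subunit is encoded on both sex chromosomes, and its 2 genes divided the libraries by replicate number. Eif2s3y, the Y-linked gene, ranged from 30.4 to 78.1 CPM in the 18 siRNA-table libraries numbered 1 and 2 and from 0 to 0.817 in the 17 numbered 3 and 4. The X-linked Eif2s3x ranged from 84.1 to 149 in the former and from 155 to 231 in the latter, with no overlap. In the mRNA table, Eif2s3y ranged from 40.8 to 60.0 in libraries numbered 1 and 2 and was 0 in all 6 numbered 3 and 4, where Eif2s3x was 182 to 204 against 123 to 134. Xist, the X-inactivation RNA, was 0 in siRNA-table libraries numbered 1 and 2 and 29.7 to 88.8 in those numbered 3 and 4. In the mRNA table it was 0 to 4.13 CPM in libraries numbered 1 and 2 and 65.3 to 104 in those numbered 3 and 4. The labels do not give the sex of the animals. The siKlf6 group, numbered 1, 2, 4 and 5, held 3 libraries with Y-linked transcripts and 1 without, where each other group held 2 and 2, and its Eif2s3y estimate of 0.90 (log2) did not pass the test. Eif2s3x shares 35.6% of its words, mostly with a pseudogene.

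**Figure D3:**
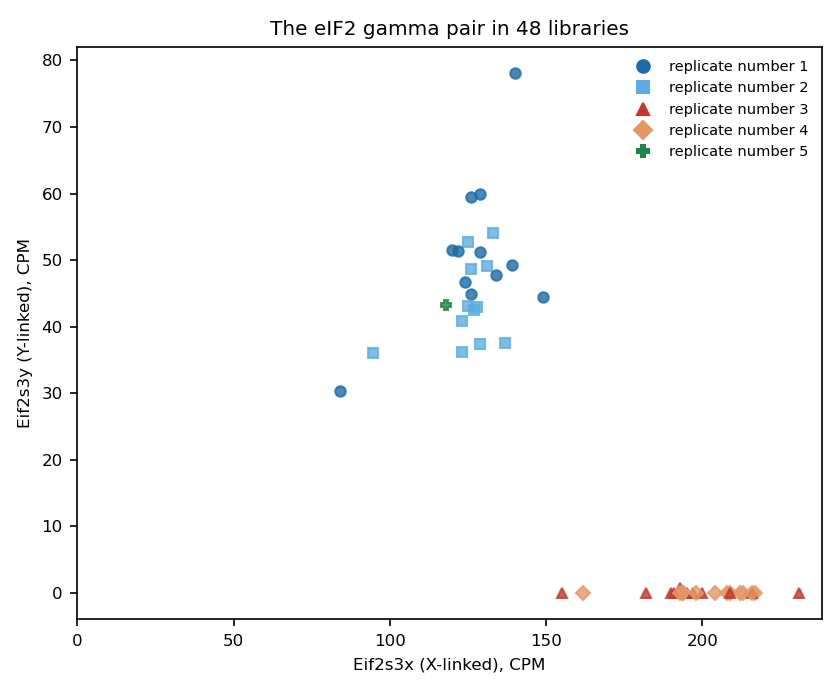
Eif2s3y (y axis) against Eif2s3x (x axis), both in CPM, in each of the 48 libraries, marked by replicate number. Libraries numbered 1, 2 and 5 lie at 30.4 CPM of Eif2s3y or higher, and those numbered 3 and 4 at 0.817 or lower and further right.

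Over the 7 knockdowns, 19 of 329 member tests passed (5.78%), in 12 members, where 5.07% of the 104132 tests over all genes passed. A share this near the background is no result about the members as a set. By size, Eif3b and Eif4e2 under siAlyref were the 2 that changed by 2-fold or more. All 7 comparisons share the siCONTROL libraries, which are also the culture group above, so their values are given side by side and not as independent evidence. Each fit covered 14876 genes.

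**Figure D4:**
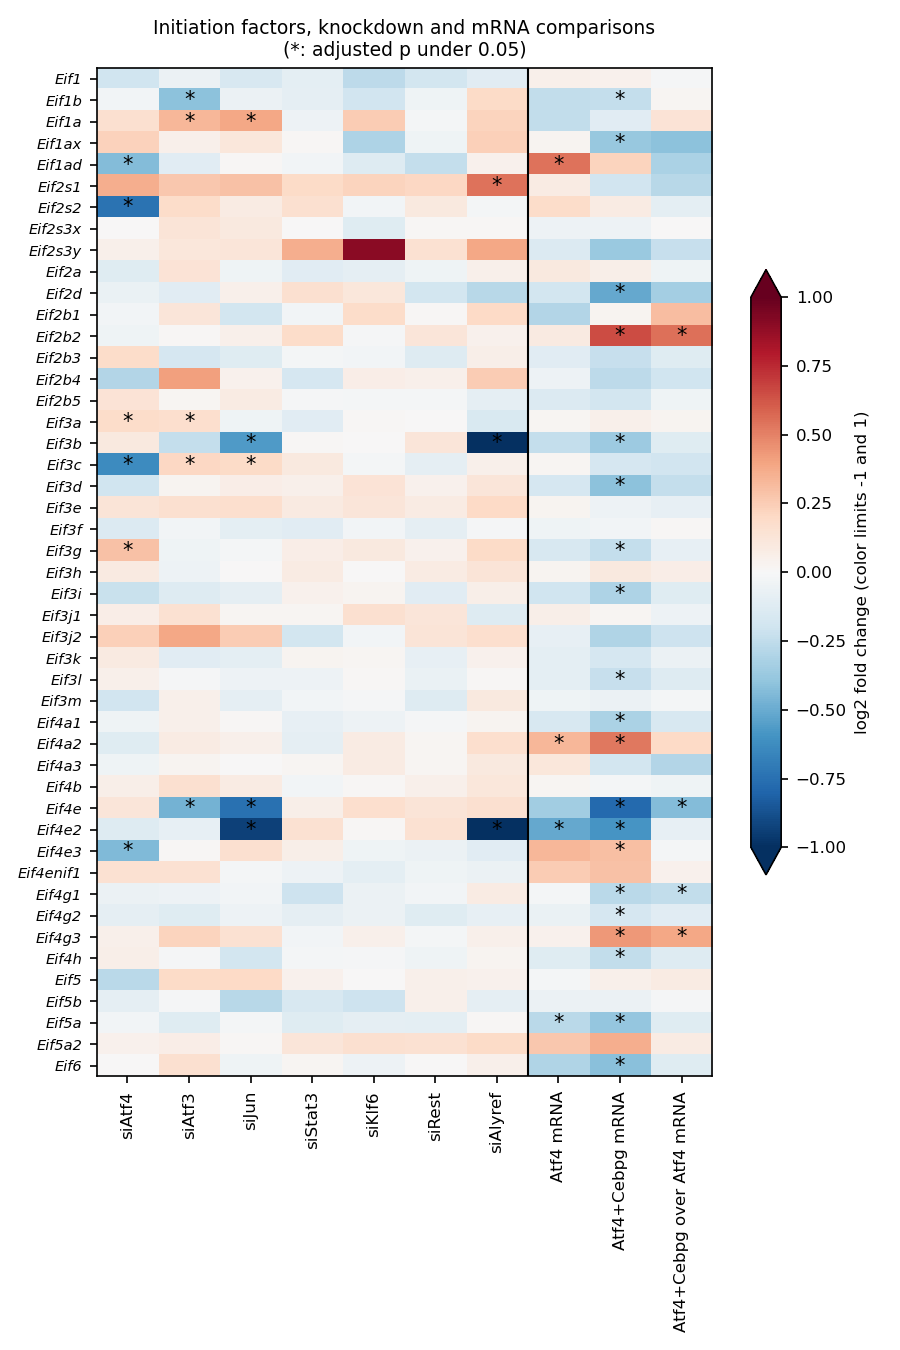
Log2 fold change of the 47 tested members (rows, by role) in the 7 knockdowns over siCONTROL and, right of the line, in the 3 mRNA comparisons; color runs from -1 (blue) to 1 (red) and stars mark an edgeR adjusted p under 0.05. Stars are sparse in the knockdown columns (19 in all) and number 20 in the Atf4 and Cebpg column, 16 of them blue.

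Knockdown of Atf4 lowered the eIF2 beta subunit and an eIF3 core subunit. Of 47 members, 4 fell (8.51%) and 2 rose (4.26%), where 4.17% of all genes fell and 2.74% rose. Eif2s2 read 120, 98.7, 100 and 105 CPM with siAtf4 against 161 to 186 in siCONTROL, a 1.67-fold fall (log2 -0.74, SE 0.062, edgeR adjusted p = 7.36e-10). Eif3c read 265, 229, 253 and 243 against 363 to 399, a 1.54-fold fall (edgeR adjusted p = 1.65e-09). Neither group overlapped its control, and both levels stayed above those of time 0. These 2 calls held in every alternative run. Neither Eif2s2 nor Eif3c passed the main test when Atf4 mRNA was supplied, alone or with Cebpg. With the replicate number as a block, Eif3d also fell (log2 -0.20, edgeR adjusted p = 0.0307).

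The other calls with siAtf4 were smaller. Eif1ad fell from 89.9 to 66.8 CPM (edgeR adjusted p = 0.0205) and Eif4e3 from 25.1 to 18.6 (edgeR adjusted p = 0.0246), while Eif3a, the largest eIF3 subunit, rose from 144 to 164 (edgeR adjusted p = 0.0198) and Eif3g from 232 to 284 (edgeR adjusted p = 0.0332). All 4 depended on single libraries, with edgeR adjusted p up to 0.1, 0.13, 0.0968 and 0.157 in that order: Eif1ad without siCONTROL 1 or 3 or siAtf4 2 or 3, Eif4e3 without siCONTROL 1 or 3 or siAtf4 1, 2 or 4, Eif3a without siCONTROL 1 or 3 or siAtf4 4, and Eif3g without siCONTROL 3 or 4 or any 1 siAtf4 library. With only the 2 groups fitted, the count was 0 higher and 2 lower. Among regulators, Eif4ebp1 fell from 81.6 to 36.8 CPM (edgeR adjusted p = 1.82e-07), Sesn2 from 35.8 to 17.9 (edgeR adjusted p = 1.38e-09) and the constitutive phosphatase subunit Ppp1r15b from 42.8 to 30.1, and the eIF2 kinase Eif2ak1 (HRI) fell from 38.4 to 31.4 (edgeR adjusted p = 0.0138). That made 2 of 12 and 2 of 9 in their lists, with none higher.

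Jun knockdown lowered the cap-binding proteins Eif4e and Eif4e2, together with Eif3b. Of 47 members, 3 fell (6.38%) and 2 rose (4.26%), where 4.59% of all genes fell and 3.19% rose. Eif4e2 read 135, 131, 104 and 108 CPM with siJun against 207 to 268 in siCONTROL, a 1.9-fold fall (log2 -0.93, SE 0.10, edgeR adjusted p = 3.45e-07). Eif4e read 313, 284, 293 and 278 against 470 to 505, a 1.68-fold fall (edgeR adjusted p = 2.29e-10), and Eif3b read 205, 180, 171 and 180 against 261 to 297, a 1.49-fold fall (edgeR adjusted p = 4.19e-05). No libraries overlapped in these comparisons. Eif1a rose from 96.8 to 127 CPM (edgeR adjusted p = 0.000696), and Eif3c from 381 to 434 (edgeR adjusted p = 0.0229), a call lost without siCONTROL 3 or 4 or siJun 4 (edgeR adjusted p up to 0.0865). Eif2ak3 fell from 56.6 to 40.7 CPM (edgeR adjusted p = 1.24e-06), and 3 of 12 cap-binding inhibitors and kinases rose: Mknk1, an eIF4E kinase, Ddit4 and Rptor. With the replicate number as a block, Eif4h, a cofactor of eIF4A, also fell (log2 -0.17, edgeR adjusted p = 0.0107). Summed satellite glia markers were 491 CPM (372 to 594) with siJun against 670 (628 to 735) in siCONTROL, with 1 of 5 lower. Their median log2 change was 0.29, so the sum fell while the typical marker did not. The part of these markers in the members' values was not tested.

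Atf3 knockdown also lowered Eif4e. Of 47 members, 2 fell (4.26%) and 3 rose (6.38%), where 7.49% of all genes fell and 4.0% rose. Eif4e read 357, 373, 345 and 340 CPM with siAtf3 against 470 to 505 in siCONTROL, a 1.39-fold fall (log2 -0.47, SE 0.056, edgeR adjusted p = 4.82e-07). Eif1b, the less abundant eIF1, read 286, 267, 244 and 286 against 313 to 390, a 1.33-fold fall (edgeR adjusted p = 0.0012). The groups did not overlap for either. Eif1a rose from 96.8 to 121 CPM (edgeR adjusted p = 0.00306), Eif3c from 381 to 441 (edgeR adjusted p = 0.00809), and Eif3a from 144 to 162 (edgeR adjusted p = 0.0231), a call lost without siCONTROL 1 or 3 or siAtf3 2 or 3 (edgeR adjusted p up to 0.128). A replicate block added rises of Eif2b4 (0.42), Eif4g3 (0.22) and Eif2s2 (0.18) and a fall of Eif3b (-0.24), on the log2 scale. The replicate numbers were not read as pairs in this comparison. When libraries were scaled by their totals alone, 56.5% rather than 34.8% of the calls over all genes were higher, and 7 members rose and 2 fell. Eif4e thus lay at 292 CPM with siJun and 354 with siAtf3, against 490 in siCONTROL and 512 to 553 in the 5 other knockdowns.

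Of the regulator lists, the cap-binding inhibitors and kinases moved most with siAtf3, with 6 of 12 higher and 1 lower. Sesn2 rose from 35.8 to 54.4 CPM (edgeR adjusted p = 3.01e-06) and Mknk1 from 29.3 to 49.0, while Mknk2 fell from 57.2 to 43.4. Pabpc1 fell from 531 to 361 (edgeR adjusted p = 1.81e-06). Summed neuron markers were 9518 CPM (8865 to 9975) with siAtf3 against 11649 (10834 to 12666) in siCONTROL, with 6 of 8 lower. Summed satellite glia markers were 469 (407 to 549) against 670 (628 to 735), with 1 of 5 lower. The median log2 change was -0.4 over the neuron markers and -0.06 over the satellite glia markers. The part of both in these values was not tested. In the 6 other knockdowns the sum of neuron markers was 10405 to 11588 and at most 2 of 8 markers passed.

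Alyref knockdown, which targets an mRNA export adaptor, gave the largest knockdown changes of any member. Eif3b read 107, 93.4, 77.4 and 75.3 CPM with siAlyref against 269, 297, 261 and 273 in siCONTROL, and every one of these libraries was below the lowest at time 0, 122. The fall was 3.11-fold (log2 -1.64, SE 0.092, edgeR adjusted p = 2.54e-13). Eif4e2 read 116, 112, 96.8 and 102 against 223, 268, 207 and 211, a 2.13-fold fall without overlap (edgeR adjusted p = 2.58e-08). Only 2 of 47 members fell (4.26%) and 1 rose (2.13%), where 3.37% of all genes fell and 0.881% rose. Eif2s1 read 92.2, 90.1, 107 and 101 against 54.1, 69.1, 86.2 and 56.4, a 1.45-fold rise (edgeR adjusted p = 0.0261) that was lost without siCONTROL 1 or 4 or siAlyref 3 or 4 (edgeR adjusted p up to 0.105). With the replicate number as a block, 4 members rose, with Eif1b (0.19), Eif4a2 (0.18) and Eif4e (0.16) added on the log2 scale. Most members lay slightly above 0, 34 of 47 (72.3%) against 50.2% of all genes, with a median of 0.05. In the regulator lists, Sesn2 fell from 35.8 to 24.0 CPM (edgeR adjusted p = 3.77e-05), Etf1, the termination factor eRF1, from 101 to 80.4 (edgeR adjusted p = 0.0164), and Pabpc1 from 531 to 431 (edgeR adjusted p = 0.0104).

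Knockdown of Stat3, Klf6 or Rest changed 0 members by edgeR's quasi-likelihood test. Over all genes the calls were 3.03%, 1.85% and 0.202% in either direction. At an unadjusted p under 0.05 there were 4, 6 and 2 members of 47. The limma-trend test also called 0 in each. DESeq2 called 1 with siStat3 and 0 with siKlf6 and siRest. With the replicate block 1 member fell with siStat3: Eif4g1, the main eIF4G scaffold (log2 -0.21, edgeR adjusted p = 0.0308). Leaving out siStat3 2 also gave 1 lower member. A missed threshold does not show that levels were the same.

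**Figure D5:**
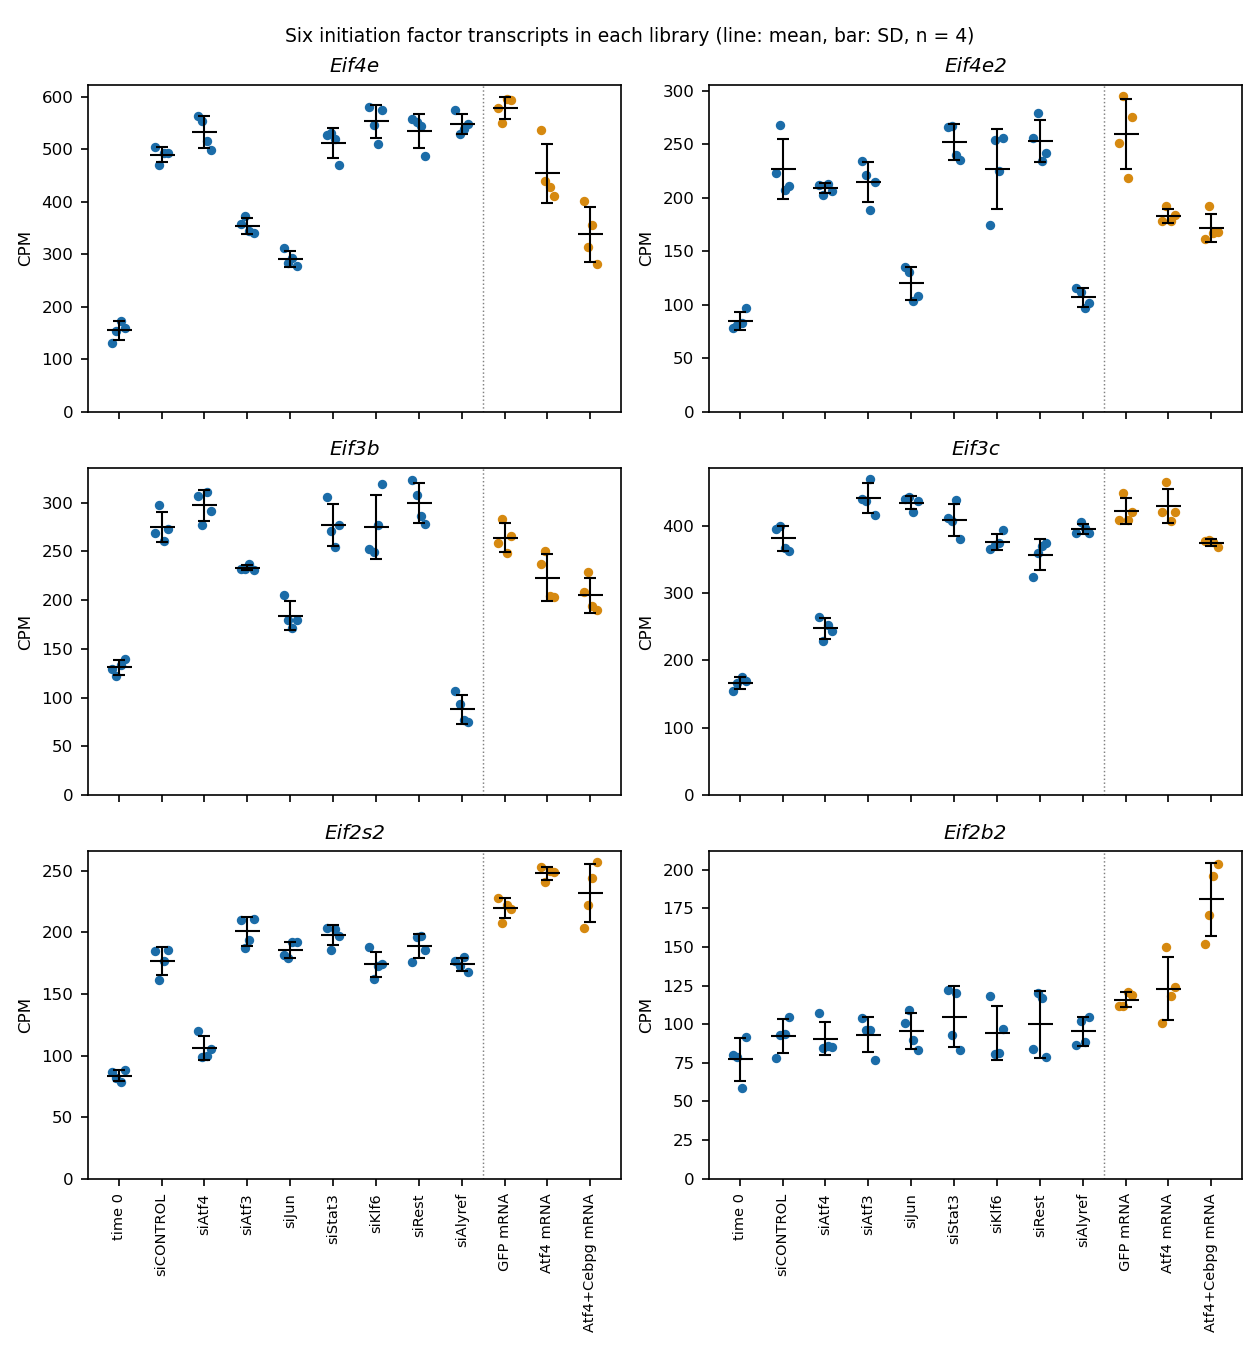
CPM of 6 members (Eif4e, Eif4e2, Eif3b, Eif3c, Eif2s2 and Eif2b2) in each library of the 12 groups (points; lines are means, bars SD, n = 4), with the separately scaled mRNA libraries right of the dotted line. Eif4e drops with siAtf3 and siJun, Eif4e2 with siJun and siAlyref, Eif3b most with siAlyref (88.2), Eif3c and Eif2s2 with siAtf4, and Eif2b2 is highest with Atf4 and Cebpg mRNA (181).

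Supplying Atf4 mRNA alone changed 4 members relative to GFP mRNA, the control. Of 47 members, 2 fell and 2 rose (4.26% each), where 2.09% of all 13857 genes fell and 2.76% rose. Eif4e2 read 178, 192, 178 and 184 CPM with Atf4 against 251, 295, 219 and 276 with GFP, a 1.42-fold fall (edgeR adjusted p = 0.00546). Eif5a fell from 889 to 735 CPM (edgeR adjusted p = 0.0142). Eif1ad read 122, 151, 131 and 148 against 79.5, 103, 86.8 and 111, a 1.45-fold rise (edgeR adjusted p = 0.0117), and Eif4a2 rose from 699 to 876 (edgeR adjusted p = 0.0174), a call lost without GFP 3 or Atf4 2 or 4 (edgeR adjusted p up to 0.0628). None of these 4 overlapped its control group. With the replicate number as a block 6 members fell, with Eif4e (-0.36), Eif6 (-0.30), Eif1b (-0.25) and Eif3b (-0.24) added on the log2 scale. When libraries were scaled by their totals alone, 71.5% rather than 56.9% of the calls over all genes were higher, and the members' counts stayed at 2 and 2.

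Atf4 together with Cebpg lowered 16 initiation factors, with the largest fall in Eif4e. Of 47 members, 16 fell (34.0%) and 4 rose (8.51%), where 12.2% of all genes fell and 12.4% rose. The median log2 fold change was -0.17 over the members and -0.003 over all genes, and 32 of 47 lay below 0. Those that fell were 2 of 5 in start codon selection, 1 of 6 in tRNA delivery, 5 of 14 in eIF3, 6 of 12 tested in eIF4 and 2 of 5 in the late steps, with 0 of 5 in eIF2B. With the replicate number as a block, Eif3c also fell (log2 -0.17, edgeR adjusted p = 0.0191) and Eif5a2 rose (0.35, edgeR adjusted p = 0.0255). The summed level was 11260 ± 166 CPM with GFP, 10798 ± 162 with Atf4 and 10356 ± 68.7 with both, as a description.

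Eif4e fell most. It read 402, 314, 355 and 281 CPM with both factors against 579, 550, 596 and 593 with GFP, a 1.72-fold fall (log2 -0.78, SE 0.11, edgeR adjusted p = 0.000143), and 536, 440, 428 and 412 with Atf4 alone. Eif4e2 read 162, 192, 167 and 168 with both (log2 -0.59, edgeR adjusted p = 0.000329), below the lowest GFP library, 219. Eif5a read 649, 712, 672 and 680 against 902, 947, 851 and 854, a log2 change of -0.39 (edgeR adjusted p = 0.000271). Eif2d, which can deliver tRNA outside the main pathway, fell from 24.5 to 17.4 CPM (edgeR adjusted p = 0.0136), Eif6 from 282 to 211 (edgeR adjusted p = 0.00348), Eif3d from 217 to 164 (edgeR adjusted p = 0.00388) and Eif3b from 264 to 205 (edgeR adjusted p = 0.00752). The others were Eif4a1, Eif3i, Eif4g1, Eif4h, Eif1b, Eif3g, Eif3l, Eif4g2 and Eif1ax, with log2 changes from -0.38 to -0.17. Only Eif1ax overlapped its control. Its call (edgeR adjusted p = 0.0372) was lost without GFP 2, 3 or 4 or Atf4 and Cebpg 1, 3 or 4 (edgeR adjusted p up to 0.108). With any 1 library left out, 11 to 15 members fell, so some others in this last list lost their calls too. Those calls were not followed one by one.

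The 4 members that rose with both factors were an eIF2B subunit and 3 eIF4 paralogs. Eif2b2, the beta subunit of eIF2B, read 152, 171, 196 and 204 CPM against 112, 112, 121 and 119, a 1.56-fold rise (log2 0.65, SE 0.12, edgeR adjusted p = 0.00116). Eif4a2 read 906, 1052, 978 and 1089 against 711, 690, 668 and 728, a 1.44-fold rise (edgeR adjusted p = 0.000132). Neither overlapped with GFP. Eif4g3 read 85.4, 114, 82.0 and 93.7 against 63.9, 67.3, 75.5 and 73.7 (edgeR adjusted p = 0.00752). Eif4e3 rose from 25.8 to 31.8 CPM (edgeR adjusted p = 0.0316), a call lost without GFP 1, 2 or 4 or Atf4 and Cebpg 2 or 3 (edgeR adjusted p up to 0.0682). The within-library ratio of Eif4a2 to Eif4a1 was 0.07 ± 0.12 with GFP, 0.55 ± 0.20 with Atf4 and 0.91 ± 0.12 with both (log2, SD, n = 4), that of Eif4g3 to Eif4g1 -2.14, -2.08 and -1.46, and that of Eif4e3 to Eif4e -4.46, -3.79 and -3.38.

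Adding Cebpg to Atf4 was also compared directly. Of 47 members, 2 rose and 2 fell (4.26% each), where 4.5% of all genes rose and 2.1% fell. Eif2b2 rose from 101, 150, 118 and 124 CPM with Atf4 to 152, 171, 196 and 204 with both, a 1.47-fold change (edgeR adjusted p = 0.0106). Eif4e fell from 454 to 338 (edgeR adjusted p = 0.0261), Eif4g1 from 307 to 258 (edgeR adjusted p = 0.0292), and Eif4g3 rose from 72.1 to 93.9 (edgeR adjusted p = 0.0379). The last 3 calls depended on single libraries, with edgeR adjusted p up to 0.0826, 0.0974 and 0.106: Eif4e without Atf4 and Cebpg 2, 3 or 4 or Atf4 1 or 2, Eif4g1 without Atf4 and Cebpg 2, 3 or 4 or Atf4 2, 3 or 4, and Eif4g3 without Atf4 and Cebpg 2 or 4 or any 1 Atf4 library. With the replicate number as a block, 5 members fell and 3 rose, with Eif1ax (-0.42), Eif1ad (-0.32), Eif3c (-0.19) and Eif4a2 (0.20) added on the log2 scale. When libraries were scaled by their totals alone, 51.7% rather than 68.2% of the calls over all genes were higher, and 1 member rose and 4 fell.

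Of the 12 cap-binding inhibitors and kinases, 2 rose and 0 fell with each mRNA treatment. Sesn2 rose from 43.8 CPM with GFP to 105 with Atf4 (edgeR adjusted p = 1.93e-05) and 125 with both (edgeR adjusted p = 5.54e-07), and Mknk1 from 34.7 to 49.2 and 47.0. With both factors Ppp1r15a rose from 260 to 359 CPM (edgeR adjusted p = 0.0101). Of 12 elongation and termination factors 4 fell and 2 rose, including Eef1b2, an eEF1 exchange subunit, from 1290 to 873 (edgeR adjusted p = 0.000848), and Paip2b, an inhibitor of poly(A)-binding protein, rose from 80.8 to 202 (edgeR adjusted p = 1.06e-05). Summed neuron markers were 11282 CPM (10750 to 12265) with GFP, 10117 (9664 to 10526) with Atf4, where 2 of 8 were lower, and 9668 (8914 to 10357) with both, with 2 of 8 lower and 1 higher, and endothelial markers 100 (83.6 to 114) and 150 (139 to 158), with 3 of 3 higher. Summed satellite glia markers were 513 (483 to 537) with GFP, 386 (356 to 412) with Atf4, where 1 of 5 was lower, and 382 (312 to 436) with both, with 1 lower and 1 higher. The median log2 change of neuron markers over GFP was -0.02 with Atf4 and 0.02 with both. That of satellite glia markers was 0.13 with Atf4 and 0.05 with both. These 2 sums thus fell without a like fall of the typical marker. The part of all these markers in the members' values was not tested.

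The culture comparison and the comparison of both factors with GFP share no library. Of the 27 members that rose in culture, 14 fell with Atf4 and Cebpg (51.9% of the risen and 87.5% of the fallen), and over all genes these shares were 23.1% and 53.1%. Of the 5 that fell in culture, 3 rose with both factors (60.0%, and 75.0% of the 4), namely Eif4a2, Eif4g3 and Eif4e3, and over all genes the shares were 16.2% and 39.8%. No member moved the same way in both. Across the 47 members the correlation of the log2 changes was r = -0.56 (Spearman rho = -0.44), and across 13027 genes r = -0.28 (rho = -0.2). These correlations are across genes, which are not independent replicates, and are given as descriptions.

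In total, 12 of the 47 tested members (25.5%) passed in none of the 11 comparisons without a block, where the share was 28.9% of the 13005 genes tested in all of them: Eif2s3x, Eif2s3y, Eif2a, Eif2b1, Eif2b4, Eif2b5, Eif3h, Eif3j1, Eif3k, Eif3m, Eif4b and Eif4enif1. They include 3 of the 5 subunits of eIF2B and 4 of the 14 genes of eIF3. With the replicate block, Eif2s3x passed in culture and Eif2b4 with siAtf3, so this list does not show that levels were the same.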

How the data were processed

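Poly(A) RNA was sequenced with a stranded kit, per the labels' protocols. The authors deposited expected counts (estimated counts that need not be whole) in 1 table for time 0 and siRNA libraries and 1 for mRNA libraries. The submitters' processing notes name kallisto and GRCm39, and version, annotation and scaling are not given in the sources consulted. In single-transcript genes, small values times transcript length clustered near 1 constant per library (1904.9 to 2210.4), so the expected counts were taken to be weighted by length. All 48 columns were matched to samples, 0 were unused and 0 pairs were identical.

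Values were rounded, filtered with filterByExpr, scaled by TMM and tested with edgeR 4.0.16 (quasi-likelihood, in R 4.3.3), with Benjamini-Hochberg adjustment over all genes. The 3 fits covered time 0 with siCONTROL, siCONTROL with the 7 knockdowns, and the mRNA groups. The model assumes a counting error that ignores the length weight. Symbols came from GENCODE M21 (GRCm38), which named 32521 of 34183 identifiers (95.1%), and words of 31 bases shared between genes were counted in its transcripts. Alternatives were DESeq2 1.42.0 (test or size factors), limma-trend (3.58.1), library totals, no filter, 2 groups only, 1 library left out, a replicate block, and, added after seeing the data, a block for Y-linked transcripts. Scripts were tested on simulated data.

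The members and lists were chosen with earlier results of these data known. Named with values were all members that passed, or the 8 with the largest change in each direction where more than 12 passed, core and paralog members, and per list the gene with the smallest p in each direction. Eif2b3 and Eif3d in culture, and further list genes, were chosen after their values were seen. Deviations of same-numbered libraries from their group means correlated above 0.1 in every pair for most comparisons (0.101 to 0.337). The exceptions were culture (from 0.045) and siAtf3 (from 0.058), where the numbers were not read as pairs. The main tests used the group alone and no pairing in any comparison. Pairing entered only through the replicate block, an alternative that was run for every comparison.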

Additional observations from a re-analysis of the deposited data

Results flagged for a closer look

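A library apart from the 3 others was looked for in 84 sets of 4 values, by the gap to its nearest neighbour over the range, and 2 were found. Chance alone gives about 1 in 20 such sets. Eif3j2 was 20.2 CPM in siCONTROL 2 and 29.9 to 31.3 in the 3 other siCONTROL libraries, a gap of 0.869 of the range. Eif3a was 154 CPM in siAtf3 4 and 164 to 166 in the 3 other siAtf3 libraries, a gap of 0.911 of the range. Without siCONTROL 2 the rise of Eif3j2 in culture kept its call, and without siAtf3 4 the rise of Eif3a with siAtf3 did so as well.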

How the results depend on the processing

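Calls were followed one by one only for the members named by the rule above, 52 calls in all, and none of these reversed. Of the 52, 38 held in every one of their 16 alternatives, and 82 of 832 alternative results lost the call. Other member calls entered only through the counts. Counts that moved by over 1.5 times were these. DESeq2 called 5 higher and 4 lower with siAtf3, 1 lower with siStat3, 2 higher with siAlyref, 5 lower with Atf4 mRNA and 4 lower when Cebpg was added. Library totals gave 7 higher with siAtf3, 1 higher with siKlf6, and 1 higher and 4 lower when Cebpg was added. Without the filter there was 1 higher with siAtf4, 1 with siJun, and 1 higher and 1 lower when Cebpg was added. Fitting 2 groups gave 0 higher and 2 lower with siAtf4, 1 higher with siJun, 0 higher with siAlyref, and 1 higher and 0 lower when Cebpg was added. The Y-linked block gave 5 higher with siAtf3 and 2 with siAlyref. The replicate block gave 6 higher with siAtf3, whose numbers were not read as pairs. It gave 1 lower with siStat3, 4 higher with siAlyref, 6 lower with Atf4 mRNA and 5 lower when Cebpg was added. It moved no other count by over 1.5 times. The block added Eif2b4 with siAtf3 (0.42, edgeR adjusted p = 0.00485). It also added Eif2s3x in culture (0.40, SE 0.07, edgeR adjusted p = 0.00132), where the numbers were not read as pairs either. Without the block, Eif2s3x had a like estimate with a wider error (0.39, SE 0.24, edgeR adjusted p = 0.188), and its level differed by replicate number in every group. The cause was not tested.

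With 1 library left out, counts higher and lower ranged from 26 to 27 and 5 to 5 in culture, 0 to 2 and 2 to 4 with siAtf4, 2 to 3 and 2 to 3 with siAtf3, 1 to 2 and 3 to 4 with siJun, 0 and 0 to 1 with siStat3, 0 and 0 with siKlf6 and siRest, 0 to 1 and 2 to 2 with siAlyref, 1 to 2 and 2 to 3 with Atf4 mRNA, 3 to 5 and 11 to 15 with Atf4 and Cebpg, and 1 to 3 and 0 to 2 when Cebpg was added. Paralog ratios past the threshold were 0 to 0, since 3 against 4 libraries cannot pass after adjustment. Eif2d, Eif4e3, Eif3j1, Eif3j2 and Eif2s3y had the lowest levels of the tested members in siCONTROL, each under 30 CPM. Reads per member were not tabulated, and CPM weighted by length do not give them.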
